A study of Arabidopsis thaliana with 16 samples.

Results

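The drm1-2 drm2-2 double mutant of Arabidopsis thaliana, called dd, was compared with its wild type, the accession Columbia-0 (Col-0), by RNA-seq of whole seedlings in white light. The dd line carries T-DNA mutations in DRM1 and DRM2, and Col-0 carries neither. Every annotated entry that the authors had tested between these groups was taken, which gave 20416 of 69252 entries. Seedlings of both groups grew on agar with sucrose under 60 mE of white light with no UV-B, and were frozen on day 10. Each group had 2 libraries labelled as biological replicates, made with a stranded mRNA kit and deposited as 1 pooled value per group. The series holds 8 RNA-seq and 8 bisulfite libraries in all. Where a value of Col-0 under 1.5 mE of UV-B is given, it is set beside the other values only for reference, since that comparison used the same Col-0 libraries in white light.

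DRM2 is the methyltransferase that places new methyl groups on cytosines in plants, and DRM1 is its close relative. Small RNAs made by the polymerase Pol IV, the RNA polymerase RDR2 and the dicer DCL3 are loaded into AGO4 or AGO6, which pair with transcripts of the polymerase Pol V and bring DRM2 to the site. This pathway, RNA-directed DNA methylation, is known for keeping young transposons and a small number of neighbouring genes silent. Loss of DRM1 and DRM2 mainly removes methylation outside CG sites at short transposons and at the edges of long ones, while MET1, CMT2 and CMT3 methylate other sites.

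The values are FPKM, fragments per kilobase scaled to library size, so a level is divided by transcript length. Log2 changes are dd over Col-0. An entry is said to have risen or fallen only where its q-value in the authors' deposited table was under 0.05. The smallest q-value there, 0.0138, was shared by 74 entries, and it applies to each risen or fallen entry below for which no other q is given. As no value per library was at hand, the spread between replicates cannot be given, and the authors' test is the only one. The smallest steps between low values put 1 fragment on a 1 kb entry at 0.0888 to 0.138 FPKM in dd, and at 0.0293 to 0.0398 FPKM in Col-0. If a pooled value is the mean of its 2 libraries, these steps amount to 3630000 to 5630000 fragments a library in dd and 12570000 to 17070000 in Col-0. A value near 0 is therefore less well measured in dd.

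The authors' test called 86 of the 20416 entries different, or 0.421%, and 757 (3.71%) at an unadjusted p under 0.05 in the authors' deposited table. Of the 86, 54 rose in dd (0.264%) and 32 fell (0.157%). The median log2 change over all tested entries was 0.0035, and the middle 50% lay between -0.11 and 0.11. The risen entries were 42 protein-coding genes (0.219% of those tested), 4 transposable elements, 3 transposable element genes, 2 regions annotated as newly found transcribed regions, 2 pseudogenes and 1 non-coding RNA. The fallen entries were 30 protein-coding genes, 1 non-coding RNA and the spliceosomal RNA gene U2.5. Among changed entries above 0 in both groups, the median size of change was 2.12-fold for risen and 2.15-fold for fallen entries. Of these, 19 risen and 11 fallen entries changed by less than 2-fold. A further 9 risen and 4 fallen entries were listed at 0 in the other group and are outside these medians. Chromosome 5, which carries both DRM genes, held 12 risen and 11 fallen entries among 4752 tested, or 0.484%, near the 0.421% of all tested entries. The other nuclear chromosomes ranged from 0.299% on chromosome 1 to 0.516% on chromosome 2. In RNA from whole seedlings, fewer cells that express a gene and less RNA per cell cannot be told apart.

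**Figure D1:**
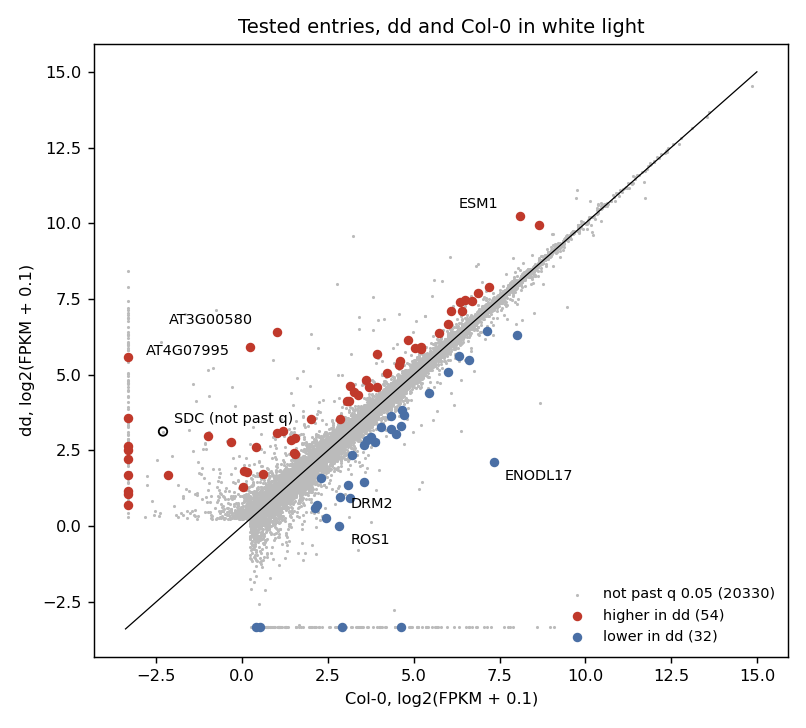
Each point is a tested entry, with its log2(FPKM + 0.1) in dd on the vertical axis and in Col-0 on the horizontal axis. The 54 red points rose and the 32 blue points fell in dd in the authors' deposited table, the line marks equal values, and the columns of points at the left and bottom edges are entries listed at 0 in Col-0 or in dd.

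The mutated genes were checked first. DRM2 (AT5G14620, chromosome 5, bases 4715105 to 4718704 in TAIR10) was at 1.82 FPKM in dd and 7.09 FPKM in Col-0, a fall of 1.96 on the log2 scale. DRM1 (AT5G15380) was listed at 0.319 FPKM in dd and at 0 in Col-0, and was not tested, so it gives no check of the label. These values cover whole genes and do not show which part of a disrupted gene was read. DRM3, a relative without methyltransferase activity that aids the pathway, was at 8.31 FPKM in dd and 7.88 FPKM in Col-0.

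The largest fall among changed entries above 0 in both groups lay beside DRM1. ENODL17 (AT5G15350), which encodes an early nodulin-like protein, lies before DRM1 (start to start -6428 bases), on chromosome 5 at bases 4984919 to 4986377. It was at 4.27 FPKM in dd and 160.4 FPKM in Col-0, with 151.6 FPKM in Col-0 under UV-B. The log2 change was -5.23, a 37.5-fold lower level in dd. Whether the mutation next to it has a part in this value was not tested.

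No other tested entry around DRM1 passed q 0.05. Within 50 kb of DRM1 lie 51 other entries, of which 28 were tested and 1 passed q 0.05. The 25 that did not and had at least 1 FPKM in both groups ranged from -0.46 to 0.25 in log2 change, with a median of -0.05. SPX4, on the far side of ENODL17 from DRM1, was at 7.74 FPKM in dd and 7.97 FPKM in Col-0. The gene AT5G15360, between ENODL17 and DRM1, was listed at 0 in dd and at 0.482 FPKM in Col-0 and was not tested. AT5G15420 was at 1.12 FPKM in dd and listed at 0 in Col-0, with a q of 0.0903 in the authors' deposited table. Around DRM2, none of 27 tested entries within 50 kb passed q 0.05 in the authors' deposited table, and 1 had an unadjusted p under 0.05. This was AT5G14610, which lies just before DRM2, at 7.65 FPKM in dd and 10.5 FPKM in Col-0, with an unadjusted p of 0.0193 in the authors' deposited table.

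**Figure D2:**
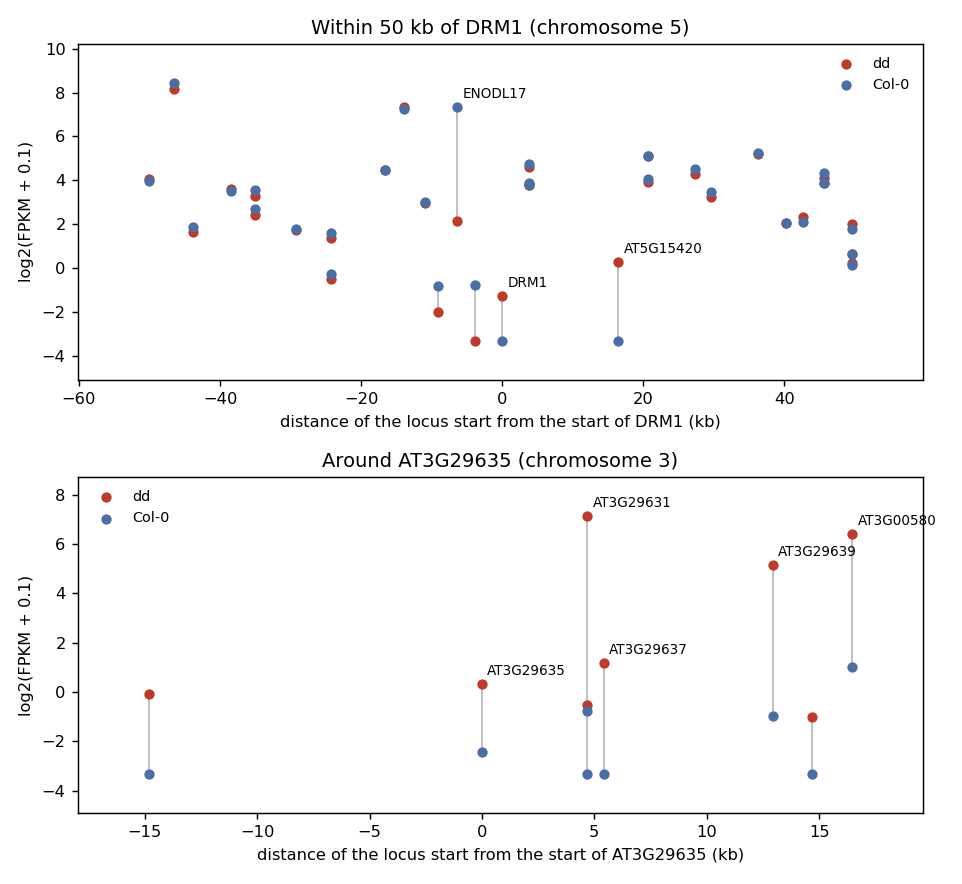
The log2(FPKM + 0.1) of each entry with at least 0.3 FPKM in either group is plotted against the distance of its locus from the start of DRM1 (top) or AT3G29635 (bottom) in kb, with dd in red and Col-0 in blue. Near DRM1 only ENODL17 of the well-expressed entries separates, while around AT3G29635 several entries near 0 in Col-0 are detected in dd.

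Apart from DRM2, no listed gene that places or maintains DNA methylation passed q 0.05. Of 29 tested members of the RNA-directed DNA methylation list, DRM2 fell and none rose. The median log2 change was 0.01. AGO4 was at 12.5 FPKM in dd and 12.4 FPKM in Col-0. RDR2 was at 2.08 FPKM in dd and 2.20 FPKM in Col-0. The largest subunit of Pol IV, NRPD1, was at 2.53 FPKM in dd and 1.82 FPKM in Col-0, with an unadjusted p of 0.034 in the authors' deposited table. MORC6, an ATPase that compacts silenced chromatin, was at 6.34 FPKM in dd and 4.51 FPKM in Col-0 (unadjusted p 0.0125 in the authors' deposited table). Neither passed q 0.05.

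Among 22 tested genes of methylation maintenance and heterochromatin, none passed q 0.05. A lower value in dd was listed for 16, against 49.2% of all tested entries. Their median was -0.06. The CG methyltransferase MET1 was at 5.32 FPKM in dd and 6.54 FPKM in Col-0. CMT3, which methylates CHG sites, was at 8.41 FPKM in dd and 8.65 FPKM in Col-0. SUVH4, which marks silenced histones, was at 8.27 FPKM in dd and 6.33 FPKM in Col-0. The linker histone gene AT2G18050 had 12.9 FPKM in dd and 20.3 FPKM in Col-0, and was the list's only member with an unadjusted p under 0.05 in the authors' deposited table.

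ROS1 (AT2G36490, DML1 in RefSeq), a glycosylase that cuts methylated cytosine out of DNA, fell the most of the list members past q 0.05. It was at 0.907 FPKM in dd and 7.02 FPKM in Col-0, a log2 change of -2.95. Under UV-B, Col-0 had 6.43 FPKM. Its locus is on chromosome 2 at bases 15307907 to 15314807, 157 bases from the locus range of the nearest transposon entry. The other demethylases did not pass q 0.05: DME was at 5.52 FPKM in dd and 5.21 FPKM in Col-0, DML2 at 3.8 FPKM in dd and 3.57 FPKM in Col-0, and DML3 at 1.93 FPKM in dd and 1.76 FPKM in Col-0. Of 11 tested genes in the demethylation list, ROS1 was the only one past q 0.05, and the median log2 change was 0.09.

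Loci known from earlier work in Arabidopsis to be controlled by DNA methylation were mostly too low to test. Of 14 listed, 5 were tested and none passed q 0.05, while 1 higher and 1 lower had an unadjusted p under 0.05 in the authors' deposited table. SDC, an F-box gene kept silent by methylation of repeats in its promoter, was at 8.59 FPKM in dd and 0.102 FPKM in Col-0. The unadjusted p for SDC in the authors' deposited table was 0.236. In Col-0 under UV-B it was at 0.110 FPKM. QQS, an orphan gene that affects starch content, was at 1.13 FPKM in dd and 8.59 FPKM in Col-0, with a q of 0.275 in the authors' deposited table. RLP43, a receptor-like protein gene, was at 1.09 FPKM in dd and 0.231 FPKM in Col-0 (unadjusted p 0.00905 in the authors' deposited table). The imprinted gene FWA stayed under 1 FPKM, at 0.152 FPKM in dd and 0.0259 FPKM in Col-0, and was not tested. The loci ALN and EPF2, by contrast, were close between groups: ALN was at 17.3 FPKM in dd and 19.8 FPKM in Col-0, and EPF2 at 5.57 FPKM in dd and 5.70 FPKM in Col-0.

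Several entries that were near 0 in wild type were well detected in the mutant. AT4G07995, a protein-coding gene on chromosome 4, was at 59.5 FPKM in dd and 1.08 FPKM in Col-0, the largest log2 change among risen entries above 0 in both groups (5.79). AT3G00580, a transcribed region on chromosome 3, was at 85.4 FPKM in dd and 1.92 FPKM in Col-0, with a q of 0.0252 in the authors' deposited table. AT5G24240 was at 7.71 FPKM in dd and 0.399 FPKM in Col-0. The non-coding RNA AT4G04223 was at 6.67 FPKM in dd and 0.703 FPKM in Col-0. In Col-0 under UV-B these 4 entries stood at 0.868, 2.41, 0.609 and 0.306 FPKM. Only AT3G00580 and AT4G04223 are alone in their locus range. For AT4G07995 and AT5G24240 the range is shared with 4 other entries each, so the source of their reads is less certain.

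A further 9 risen entries were listed at 0 in Col-0, both in white light and under UV-B. They were the protein-coding genes AT1G33850 (47.8 FPKM in dd), AT1G48953 (4.49 FPKM) and AT3G29637 (2.15 FPKM), and the transcribed region AT4G09245 (6.15 FPKM). The other 5 were transposon entries. These were AT1TE58825 at 11.7 FPKM, AT5G35207 at 5.55 FPKM, AT2TE22550 at 3.11 FPKM, AT5TE25535 at 2.00 FPKM and AT3TE76405 at 1.52 FPKM in dd. In the other direction, 4 fallen entries were listed at 0 in dd. They were U2.5 (24.6 FPKM in Col-0), the non-coding RNA AT2G06002 (7.41 FPKM), AT3G43840 (1.32 FPKM, q 0.0252 in the authors' deposited table) and AT1G33320 (1.22 FPKM). All 4 were also above 0 in Col-0 under UV-B, at 12.0, 5.28, 1.36 and 0.803 FPKM.

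Some of these entries lay side by side. On chromosome 3, between bases 11465695 and 11482710, AT3G29635 was at 1.17 FPKM in dd and 0.0864 FPKM in Col-0. Next to it AT3G29631 was at 141.3 FPKM in dd and 0.494 FPKM in Col-0, and AT3G29639 at 35.4 FPKM in dd and 0.406 FPKM in Col-0. AT3G29637 and AT3G00580, described above, lie in the same stretch, and they alone of the 5 passed q 0.05. The unadjusted p-values of AT3G29631 and AT3G29639 in the authors' deposited table were 0.135 and 0.0134. The plot of this stretch shows all 5 higher in dd.

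Similar stretches lay on chromosomes 1 and 3. AT1G33840, which lies 4188 bases from AT1G33850 start to start, was at 25.7 FPKM in dd and 0.268 FPKM in Col-0 (unadjusted p 0.242 in the authors' deposited table). AT3G28899 was at 129.3 FPKM in dd and 0.213 FPKM in Col-0 (unadjusted p 0.246 in the authors' deposited table). AT3TE45330, a transposon entry in the same locus range, was at 756 FPKM in dd and 9.28 FPKM in Col-0. Yet AT3G28900, which shares that range, was at 69.3 FPKM in dd and 71.7 FPKM in Col-0, and the next gene, AT3G28910, was at 22.9 FPKM in dd and 22.4 FPKM in Col-0. RLP43 lies just before AT3G28899, between bases 10895977 and 10898900.

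Counted over entries alone in a locus range of at least 300 bases, 33 of 26304 were at least 8-fold higher in dd and at 1 FPKM or more there (0.125%). The reverse held for 20 (0.076%). Of the 33, 13 were protein-coding genes, 8 transposable elements and 5 transcribed regions, 6 passed q 0.05, and 28 were under 1 FPKM in Col-0 under UV-B. Of the 20, 3 passed q 0.05 and 10 were under 1 FPKM in Col-0 under UV-B. The excess on the dd side depends on which entries are counted: over all entries, also those that share a range or are shorter, 225 were higher and 371 lower in dd. The lower depth in dd moves with the entries at 0 there, and its part in these counts was not tested.

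Few transposon entries could be tested. Of 34973, 450 were tested, 7 rose (1.56%) and none fell. Besides the 5 listed at 0 in Col-0, these were AT5G35935, at 3.14 FPKM in dd and 0.124 FPKM in Col-0, and AT2G04460, at 21.4 FPKM in dd and 9.56 FPKM in Col-0. AT2G04460 was at 17.1 FPKM in Col-0 under UV-B. Of the 7, only AT1TE58825 and AT2TE22550 are alone in their locus range. AT2G04460, AT5G35935, AT5G35207, AT5TE25535 and AT3TE76405 share theirs with other entries, so the source of their reads is less certain.

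The authors also deposited a list of 270 transposon entries raised in dd. It held 201 transposable elements and 69 transposable element genes, and it matched the entries above 0 in both groups with a value at least 1.5 times as high in dd, 270 of 270. The lowest ratio on it was 1.52, the median ratio 3.29, and the median level 0.640 FPKM in dd and 0.160 FPKM in Col-0. Since these values made the list, they carry no test. By the same arithmetic 143 entries were at least 1.5 times as high in Col-0. The unequal depth bears on both counts. On a 1 kb entry 1 fragment stands for 0.0888 to 0.138 FPKM in dd and 0.0293 to 0.0398 FPKM in Col-0. An entry with 1 fragment in each group would thus pass the 1.5 limit on the dd side. The part of depth in the list and in its median ratio was not tested. Entries above 0 in 1 group only, 421 in dd and 1210 in Col-0, are outside it. Of 110 listed entries that were tested, 2 passed q 0.05 in the authors' deposited table and 7 had an unadjusted p under 0.05.

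Most listed transposon entries were low or overlapped other entries. In dd, 124 had at least 1 FPKM and 61 were under 0.1 FPKM, and 113 shared a locus range with a protein-coding gene. Only 39 were alone in their range, and 17 of those had at least 1 FPKM in dd, against 7 in the reverse direction with at least 1 FPKM in Col-0. No minimum length was set here, and at the lower depth in dd a short entry reaches 1 FPKM on fewer fragments than in Col-0. AT3TE69725, of 277 bases and not tested, was at 1.43 FPKM in dd and 0.387 FPKM in Col-0. The part of depth in this contrast was not tested. The highest value on the list, 802 FPKM in dd and 520.0 FPKM in Col-0 at AT5TE92730, belongs to an entry that shares its range with 2 others. The 10 highest reached 115 FPKM or more in dd, and 9 of them shared a range. Of the entries alone in their range, AT1TE42205 was at 34.3 FPKM in dd and 3.33 FPKM in Col-0, and AT3TE53510 at 119.9 FPKM in dd and 10.6 FPKM in Col-0. By chromosome the list held 45, 53, 68, 38 and 66 entries on chromosomes 1 to 5.

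Most changed genes had a transposon entry nearby, as did many others. Distances were taken between locus ranges, which can span several entries, so a gene itself may lie farther from the transposon. Of the 42 risen protein-coding genes, 36 had a transposon entry within 2000 bases (85.7%). Of the 30 fallen genes, 23 did (76.7%). Over all 19101 tested nuclear protein-coding genes the share was 51.1%. Stretches dense in transposons, with over 100 transposon entries within 100 kb on either side, held 11 risen genes (26.2%), 4 fallen genes (13.3%) and 4.75% of all tested genes. Position was not used to choose the genes, and neighbouring genes share their surroundings, so no test was made of these shares. Among the 15 genes in dense stretches were ACS11, AT4G07995 and AT3G32030, which was at 6.04 FPKM in dd and 1.22 FPKM in Col-0.

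**Figure D3:**
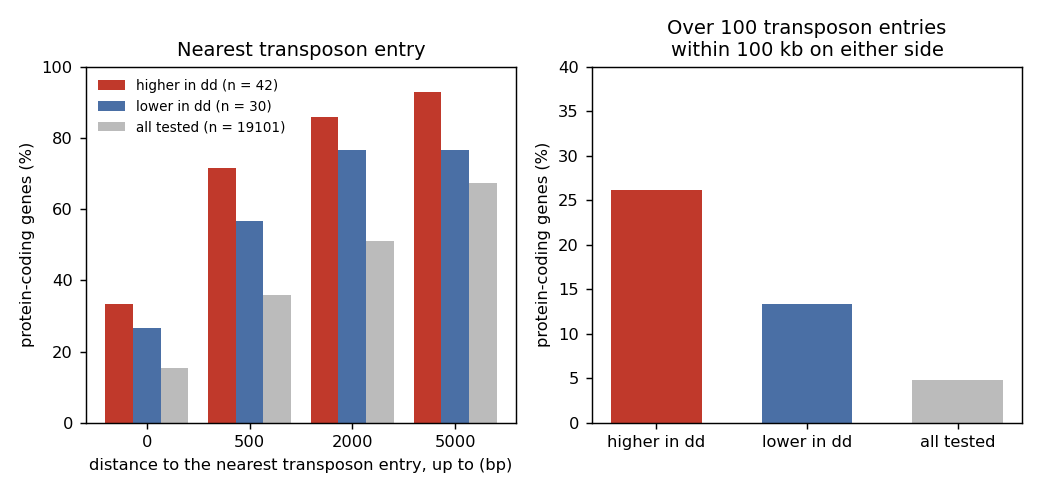
The left bars give the percentage of nuclear protein-coding genes with a transposon entry within 0, 500, 2000 or 5000 bases, measured between locus ranges. They cover genes that rose in dd, genes that fell in dd and all tested genes. The right bars give the percentage in stretches with over 100 transposon entries, which was 26.2% of risen, 13.3% of fallen and 4.75% of all tested genes.

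Changed entries also lay next to each other. There were 8 pairs within 20 kb, made up of 15 entries, and 5 pairs moved in the same direction and 3 in opposite directions. Gaps were taken between locus ranges, so genes in shared ranges may lie farther apart. On chromosome 5, AT5G35480 was at 51.7 FPKM in dd and 15.3 FPKM in Col-0. MRU1, whose locus range begins 112 bases away, was at 24.7 FPKM in dd and 8.75 FPKM in Col-0. Both share their range with other entries. The receptor-like protein genes RLP40 and RLP41 have locus ranges 85 bases apart on chromosome 3, each shared with another entry. RLP40 was at 3.22 FPKM in dd and 1.42 FPKM in Col-0 (q 0.0475 in the authors' deposited table), and RLP41 at 5.18 FPKM in dd and 2.76 FPKM in Col-0 (q 0.0252 in the same deposited table). As members of a gene family they may share reads, which makes each value less certain.

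Opposite pairs were found on chromosomes 1 and 5. AT1G66090 was at 24.1 FPKM in dd and 15.1 FPKM in Col-0. Its neighbour AT1G66100, with a gap of 194 bases between the locus ranges, was at 80.0 FPKM in dd and 258.6 FPKM in Col-0. The transposable element gene AT5G35935 rose, as given above. AT5G35940, whose locus range begins 682 bases away, was at 1.1 FPKM in dd and 5.32 FPKM in Col-0. The entries of both pairs share their ranges with other entries, so the source of their reads is less certain.

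The phosphate starvation list held the most fallen genes of any list, and also the most tested members. These genes are switched on by the transcription factor PHR1 when phosphate is short, and they raise its uptake, recycling and sparing. Of 32 tested members 6 fell and none rose, where 0.157% of all tested entries fell and 0.264% rose. A lower value in dd was listed for 27, where 49.2% of all tested entries were lower and 50.8% higher. The list's median log2 change was -0.35. At an unadjusted p under 0.05 in the authors' deposited table, 15 were lower and none higher, where the shares over all tested entries were 1.92% lower and 1.78% higher.

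The fallen phosphate genes covered signalling and recycling. SPX1, a sensor protein that holds PHR1 back when phosphate is plentiful, was at 48.6 FPKM in dd and 80.1 FPKM in Col-0. IPS1, an RNA that sequesters the microRNA miR399, was at 44.7 FPKM in dd and 97.8 FPKM in Col-0. Both were higher in Col-0 under UV-B than in either, at 126.5 and 212.2 FPKM. PAP14, a purple acid phosphatase, was at 2.48 FPKM in dd and 8.42 FPKM in Col-0, the strongest fall of the list at -1.76.

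The other 3 encode enzymes of phosphorus recycling and lipid replacement. PEPC1, a phosphoethanolamine and phosphocholine phosphatase, was at 9.67 FPKM in dd and 24.7 FPKM in Col-0. MGD3, which makes galactolipids that replace phospholipids, was at 6.81 FPKM in dd and 14.4 FPKM in Col-0. PS2, a pyrophosphatase, was at 14.1 FPKM in dd and 25.2 FPKM in Col-0. The upstream regulators were nearly level: PHR1 was at 37.1 FPKM in dd and 34.9 FPKM in Col-0, and PHO2 at 21.6 FPKM in dd and 20.5 FPKM in Col-0.

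Further phosphate genes were lower in dd without passing q 0.05. SPX3 was at 2.42 FPKM in dd and 7.0 FPKM in Col-0 (q 0.136 in the authors' deposited table), and AT4, a relative of IPS1, at 97.6 FPKM in dd and 140.8 FPKM in Col-0 (q 0.136 there as well). GDPD1, a phosphodiesterase, was at 37.3 FPKM in dd and 56.7 FPKM in Col-0 (q 0.0867 in the authors' deposited table). The main uptake transporter PHT1;1 was at 26.1 FPKM in dd and 26.4 FPKM in Col-0.

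The triterpene list held 5 fallen genes, where 0.157% of all tested entries fell. Thalianol and marneral are triterpenes made in Arabidopsis roots by enzymes whose genes lie side by side. Of 11 tested members none rose, and 10 had a lower value in dd, against 49.2% of all tested entries, with a median log2 change of -1.16. THAS1, the thalianol synthase, was at 6.24 FPKM in dd and 11.5 FPKM in Col-0. CYP708A2, which hydroxylates thalianol, was at 9.05 FPKM in dd and 20.2 FPKM in Col-0. CYP705A5, which acts after it, was at 8.05 FPKM in dd and 22.1 FPKM in Col-0. These 3 lie together on chromosome 5 from base 19434758 to base 19461706.

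In the other clusters 2 genes fell, CYP71A16 and CYP702A5. CYP71A16, the marneral oxidase, was at 1.53 FPKM in dd and 4.41 FPKM in Col-0. MRN1, the marneral synthase beside it, was at 0.424 FPKM in dd and 1.55 FPKM in Col-0, with a q of 0.241 in the authors' deposited table. CYP702A5, a cytochrome P450 gene in a chromosome 4 cluster, was at 2.66 FPKM in dd and 11.5 FPKM in Col-0. PEN1, of that same cluster, was at 3.32 FPKM in dd and 3.30 FPKM in Col-0. The 3 thalianol genes were also low in Col-0 under UV-B, at 6.13, 11.7 and 7.98 FPKM in the order given above, while CYP702A5 was at 11.7 FPKM there.

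Most root markers had a lower value in dd without passing the test. Of 12 tested, 10 had a lower value in dd, against 49.2% of all tested entries, and none passed q 0.05, with a median log2 change of -0.32. At an unadjusted p under 0.05 in the authors' deposited table, 1 was higher and 2 were lower, where the shares over all tested entries were 1.78% higher and 1.92% lower. The root markers' summed level was 191 FPKM in dd and 204 FPKM in Col-0, and none was at 0 in either group. CASP2, which helps build the Casparian strip, was at 11.4 FPKM in dd and 15.4 FPKM in Col-0. The iron transporter IRT1, in contrast, was at 79.8 FPKM in dd and 64.0 FPKM in Col-0. The part of root content in the phosphate and triterpene values was not tested.

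**Figure D4:**
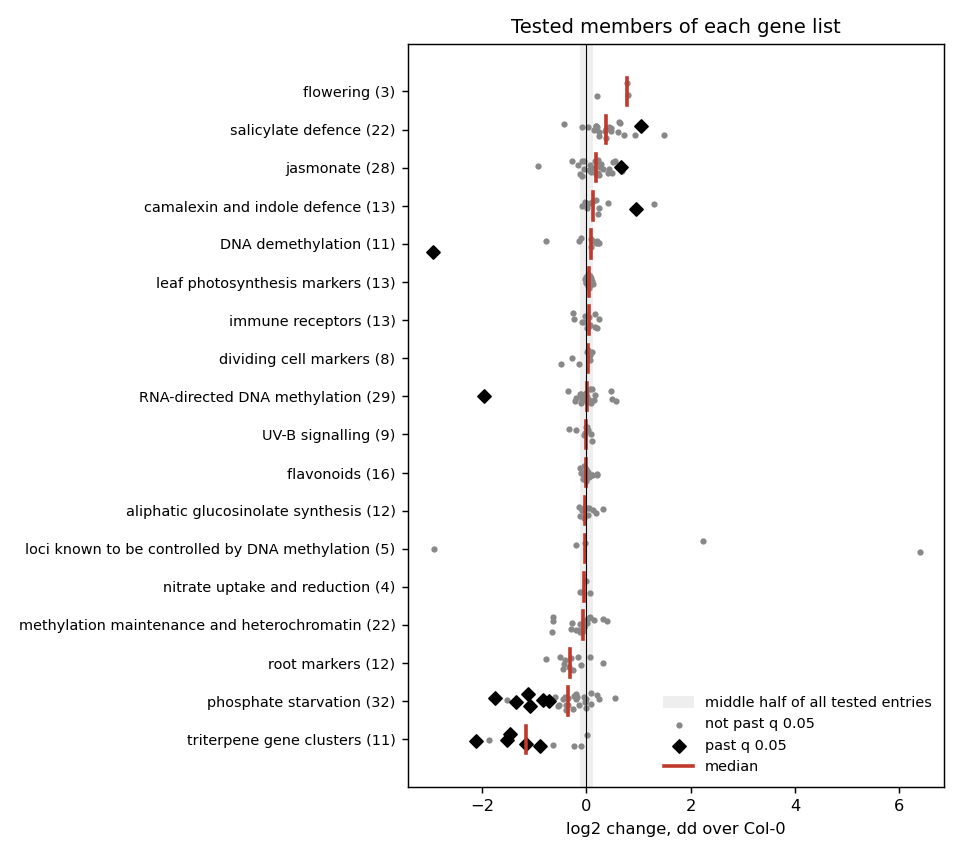
Each row is a gene list with its number of tested members above 0 in both groups, each point a member's log2 change (dd over Col-0), black diamonds the members past q 0.05 and red bars the medians. The triterpene and phosphate lists sit to the left with medians of -1.16 and -0.35. The salicylate list sits to the right at 0.38, and the flowering list, with only 3 tested genes, farther right at 0.78. The grey band from -0.11 to 0.11 holds the middle 50% of all tested entries.

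The other tissue markers were close between groups. The 13 leaf photosynthesis genes ranged from -0.03 to 0.12 in log2 change, with a summed level of 66765 FPKM in dd and 65113 FPKM in Col-0. The median over 8 genes of dividing cells was 0.02. Seed storage genes were at or near 0: CRU3 and SESA1 were listed at 0 in both groups. The flowering list, which does not mark a tissue, had 3 tested genes with a median log2 change of 0.78. All 3 had a higher value in dd, against 50.8% of all tested entries, and none passed q 0.05. One of them, FLC, a repressor of flowering, was at 7.24 FPKM in dd and 4.16 FPKM in Col-0. Its unadjusted p in the authors' deposited table was 0.0102.

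The salicylate, camalexin and jasmonate lists each held 1 risen gene and no fallen one, where 0.264% of all tested entries rose and 0.157% fell. Salicylate is the hormone of defence against pathogens that feed on living cells. Of 22 tested members of its list 20 had a higher value in dd and the median was 0.38. Over all tested entries 50.8% were higher. At an unadjusted p under 0.05 in the authors' deposited table, 10 of the 22 were higher and 1 lower, where the shares over all tested entries were 1.78% higher and 1.92% lower. PR2 (BGL2 in RefSeq), a glucanase that attacks fungal walls, rose to 170.0 FPKM in dd, against 81.9 FPKM in Col-0.

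Other salicylate genes did not pass q 0.05. FMO1, which makes the systemic signal N-hydroxypipecolic acid, was at 3.84 FPKM in dd and 1.36 FPKM in Col-0 (q 0.0543 in the authors' deposited table). WRKY70, a transcription factor of the salicylate response, was at 88.3 FPKM in dd and 58.2 FPKM in Col-0 (q 0.0625 in the authors' deposited table). SARD1, a regulator of salicylate synthesis, was at 5.50 FPKM in dd and 3.34 FPKM in Col-0. PR1, the common marker of the response, was at 44.8 FPKM in dd and 32.2 FPKM in Col-0 (unadjusted p 0.0103 in the authors' deposited table). AZI1 ran the other way, at 116.9 FPKM in dd and 158.4 FPKM in Col-0. The receptors NPR1, NPR3 and NPR4 had unadjusted p-values over 0.1 in the authors' deposited table, and NPR1 was at 12.4 FPKM in dd and 13.2 FPKM in Col-0.

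PAD3, the last enzyme of camalexin synthesis, was at 19.9 FPKM in dd and 10.3 FPKM in Col-0. It was the only 1 of 13 tested camalexin and indole genes past q 0.05, and the list's median was 0.12. CYP71A13, which acts earlier in the same pathway, was at 7.13 FPKM in dd and 2.92 FPKM in Col-0 (unadjusted p 0.0818 in the authors' deposited table). Among 28 tested jasmonate genes VSP2, a storage protein induced by wounding, was at 101.4 FPKM in dd and 64.2 FPKM in Col-0, and the list's median was 0.19. JAZ10, a repressor induced by the hormone, was at 7.69 FPKM in dd and 4.79 FPKM in Col-0. PDF1.2, a defensin marker of the combined jasmonate and ethylene response, was at 13.5 FPKM in dd and 25.7 FPKM in Col-0 (q 0.132 in the authors' deposited table). None of 13 immune receptor genes passed q 0.05 or an unadjusted p of 0.05 in the authors' deposited table, with a median of 0.04.

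Outside the lists, ESM1 had the highest level in dd of all entries past q 0.05. ESM1 shifts the breakdown of glucosinolates toward isothiocyanates, which deter insects. It was at 1220.4 FPKM in dd and 271 FPKM in Col-0, with 330.0 FPKM in Col-0 under UV-B, on chromosome 3 at bases 4729399 to 4731847. The next gene, AT3G14220, was at 47.3 FPKM in dd and 46.8 FPKM in Col-0. None of 12 tested genes of aliphatic glucosinolate synthesis passed q 0.05 or an unadjusted p of 0.05 in the authors' deposited table, with a median of -0.02.

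Further risen genes with roles in defence or stress, named after their values were seen, were at moderate levels. ELI3-2, a pathogen-induced alcohol dehydrogenase, was at 8.37 FPKM in dd and 1.91 FPKM in Col-0. TPS04, a synthase of a volatile terpene released on attack, was at 7.39 FPKM in dd and 2.80 FPKM in Col-0. The defensin PDF2.1 was at 70.3 FPKM in dd and 28.6 FPKM in Col-0. The chitinase gene CHI was at 39.7 FPKM in dd and 23.8 FPKM in Col-0 (q 0.0252 in the authors' deposited table). SAG13, a gene of senescence, was at 43.3 FPKM in dd and 24.2 FPKM in Col-0, and PCC1, named for its pathogen and clock control, at 238 FPKM in dd and 148 FPKM in Col-0.

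In Col-0 under UV-B several of these genes stood below both groups. PR2 was at 34.3 FPKM, PCC1 at 39.99 FPKM, TPS04 at 0.573 FPKM and VSP2 at 39.2 FPKM. PDF2.1, at 31.6 FPKM, was near its white-light level in Col-0.

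Other risen genes outside the lists, named after their values were seen, had varied roles. ACS11, an enzyme of ethylene synthesis, was at 11.5 FPKM in dd and 3.89 FPKM in Col-0. CYP707A3, which breaks down abscisic acid, was at 23.9 FPKM in dd and 12.9 FPKM in Col-0. HAK5, a high-affinity potassium transporter, was at 5.12 FPKM in dd and 2.79 FPKM in Col-0, and was at 0.345 FPKM in Col-0 under UV-B. TCH4, a wall-loosening enzyme induced by touch, was at 137.6 FPKM in dd and 84.2 FPKM in Col-0. The glutathione transferases GSTU4 and GSTF14 were at 17.3 and 58.5 FPKM in dd, against 8.63 and 32.4 FPKM in Col-0. AT5G27850, which the sources used here do not name, reached 994 FPKM in dd, against 404 FPKM in Col-0. Also unnamed there are AT4G16540, at 8.76 FPKM in dd and 2.20 FPKM in Col-0 (q 0.0360 in the authors' deposited table), and AT1G26390, at 7.07 FPKM in dd and 2.57 FPKM in Col-0.

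**Figure D5:**
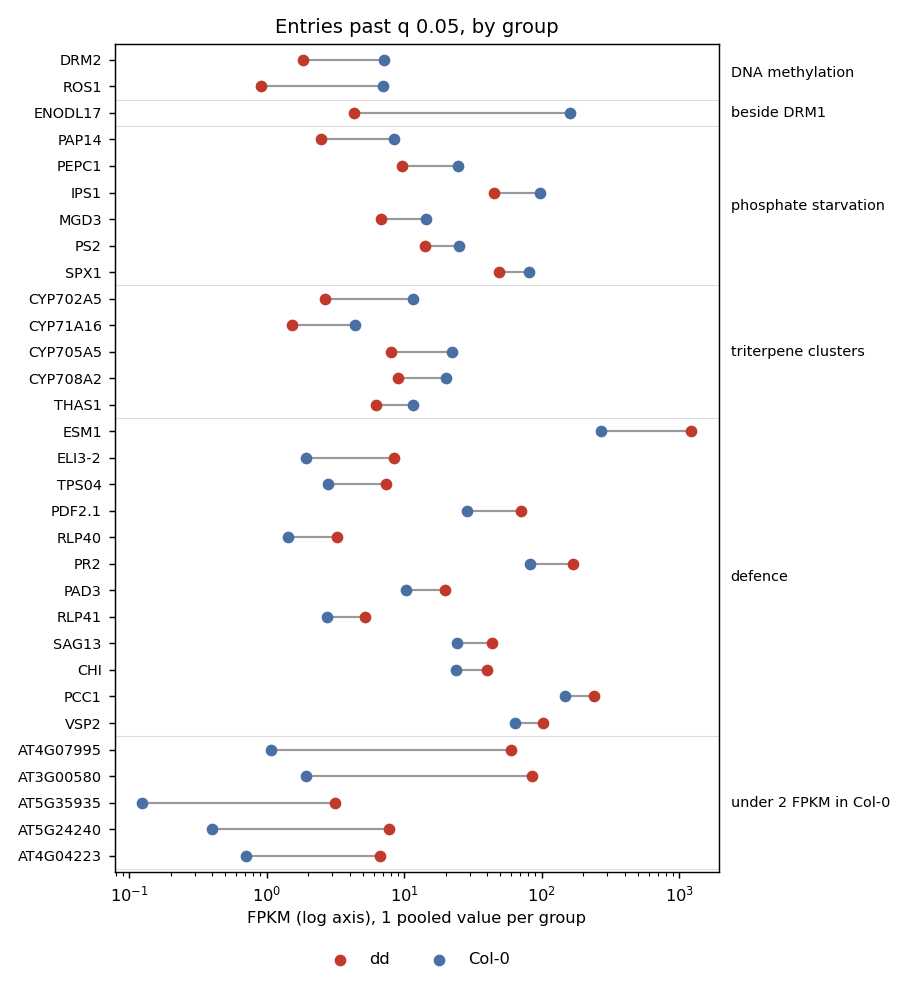
FPKM on a log axis is shown for selected entries past q 0.05, with dd in red and Col-0 in blue and 1 pooled value per group. The phosphate and triterpene genes shown are the fallen list members and lie to the left in dd. The defence genes shown were picked among risen entries, so they lie to the right by choice. ENODL17 spans the widest gap among fallen genes, 4.27 FPKM in dd and 160.4 FPKM in Col-0.

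Among fallen genes outside the lists, also named after their values were seen, AT3G46700 was at 1.79 FPKM in dd and 8.65 FPKM in Col-0, and AT2G18980 at 21.0 FPKM in dd and 43.4 FPKM in Col-0. BAM5, a beta-amylase, was at 1.42 FPKM in dd and 4.25 FPKM in Col-0, and at 54.1 FPKM in Col-0 under UV-B. AGP13, a cell surface arabinogalactan protein gene, was at 12.5 FPKM in dd and 26.01 FPKM in Col-0 (q 0.0360 in the authors' deposited table). NAS3, which makes the metal chelator nicotianamine, was at 7.01 FPKM in dd and 12.4 FPKM in Col-0. The extensin gene EXT10, a wall protein, was at 7.53 FPKM in dd and 13.3 FPKM in Col-0. UMAMIT20, a gene of a transporter family, was at 12.2 FPKM in dd and 20.1 FPKM in Col-0 (q 0.0360 in the authors' deposited table). AT5G20790 was at 33.9 FPKM in dd and 64.3 FPKM in Col-0, and at 143.4 FPKM in Col-0 under UV-B.

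The lists for UV-B signalling, flavonoids and nitrate had no member past q 0.05 or an unadjusted p of 0.05 in the authors' deposited table. Their medians were -0.01 over 9 tested genes, -0.02 over 16 and -0.05 over 4. In all, 263 of 306 list members were tested, 16 passed q 0.05, and 12 of the 19 lists had none that did.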

How the data were processed

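The deposited values are FPKM, 1 value per group pooled by the authors, per the file headers and the range of the values, with a deposited p-value and q-value per entry. Trimmomatic, HISAT2, BSMAP, Cufflinks and the TAIR10 build stand in the submitters' processing notes; their versions and the assay each served are not given in the sources used here. Reads of overlapping or near-identical entries may have been split in the FPKM values. The q-values could be recomputed from the p-values by Benjamini-Hochberg adjustment over 20416 entries, within 5e-07. Log2 changes were computed as dd over Col-0 with no pseudocount, since the deposited log2 column runs the other way. Python 3.11.15, pandas 2.3.3, numpy 2.4.6 and matplotlib 3.10.9 were used. The Benjamini-Hochberg adjustment and the log2 ratio were tested on simulated data. The counts by list, position and level were not.

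Names of genes are those of RefSeq's TAIR10.1 table, which matched 37840 of 69252 identifiers, and coordinates from the deposited table. The comparison, the 19 gene lists and the markers were chosen with earlier results of these data known. Named were DRM1 to DRM3, ROS1, SDC, FWA and QQS, risen and fallen entries by size of change, changed list members, the 2 list members with the largest change at 5 FPKM or more, and neighbours of both DRM genes; other genes were picked with their values known. The depth estimate rests on the smallest steps of low values. Locus ranges can span several entries. Alternatives changed the threshold, minimum level, pseudocount, scaling, adjustment, overlap and distance. Promoter sequences and the bisulfite libraries were not analysed here.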

Additional observations from a re-analysis of the deposited data

How the results depend on the processing

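No paired analysis was possible because each group had 1 pooled value, and for the same reason no replicate could be left out. No entry passed q 0.01 in the authors' deposited table, with 0 risen and 0 fallen, since the smallest q was 0.0138. At an unadjusted p under 0.05 there were 757 entries in the authors' deposited table, 364 higher and 393 lower in dd. With a log2 change of at least 1 as well as q 0.05, 56 remained, 35 higher and 21 lower. Among entries alone in their locus range 51 passed, 29 of them higher in dd. With at least 1 FPKM in the higher group the counts were 86, 54 and 32, and with adjustment over protein-coding genes only 71, 41 and 30.

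The share of genes whose locus range overlapped that of a transposon entry (0 bases) was 33.3% of risen, 26.7% of fallen and 15.4% of all tested genes. Within 500 bases it was 71.4%, 56.7% and 35.8%, and within 5000 bases 92.9%, 76.7% and 67.4%, so the fallen genes stood closer to all tested genes there. The raised transposon list held 124 entries at 1 FPKM or more in dd, and 137 that share no locus range with a gene.

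None of 104 named genes changed sign under 4 settings, but these settings do not test the signs. A pseudocount added to both groups cannot turn a sign. Centring on the median of tested entries moved each log2 change by only 0.0035. The Col-0 value listed with the UV-B comparison comes from the same white-light libraries. With a pseudocount of 1 FPKM, 13 of the 104 named genes moved by more than 1.5-fold. Among them were ROS1 (-2.07), SDC (3.12) and AT5G24240 (2.64). The triterpene median was then -0.79. Other windows for transposon density, 50 and 200 kb, and a 4-fold limit for silent entries (48 higher, 30 lower) were chosen after seeing the data. The 50 kb window gave 28.6% of risen, 20.0% of fallen and 4.55% of all tested genes, and the 200 kb window 26.2%, 13.3% and 5.02%.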

Other observations

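A further set of entries lay between q 0.05 and q 0.1 in the authors' deposited table. Those higher in dd included ACS6, an enzyme of ethylene synthesis like the risen ACS11, at 77.2 FPKM in dd and 52.2 FPKM in Col-0 (q 0.0543 in the authors' deposited table). TIR, a gene of an immune signalling domain, was at 134.7 FPKM in dd and 90.3 FPKM in Col-0. The purine transporter gene PUP1 was at 12.6 FPKM in dd and 7.32 FPKM in Col-0. AT1G75945 was at 44.3 FPKM in dd and 1.76 FPKM in Col-0, and was listed at 0 in Col-0 under UV-B. Those lower in dd included FRO4, a metal reductase, at 4.13 FPKM in dd and 7.24 FPKM in Col-0. UGT84A4, a glucosyltransferase of phenolic acids, was at 2.48 FPKM in dd and 5.13 FPKM in Col-0.

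Transcripts of the chloroplast genome, which a poly(A) library samples poorly, had a median log2 change of 0.22 over 63 tested entries, and those of the mitochondrial genome 0.04 over 11. None of either passed q 0.05 in the authors' deposited table, where 2 chloroplast entries and 1 mitochondrial entry had an unadjusted p under 0.05.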
